A study of Mus musculus with 2 samples.

Results

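The tumour necrosis factor (TNF) genes described here are 8 of the 32285 genes counted in single cells of the mouse mammary gland. They are the ligand genes Tnf and Ltb, the receptor genes Tnfrsf1a and Tnfrsf1b, and the genes Nfkbia, Tnfaip3, Birc3 and Traf1, which are targets and regulators of the transcription factor NF-kB. They were chosen by name, with earlier results of these data known, and all 8 were found in the gene list. Mammary glands of adult female wild-type mice, given as 9 to 10 weeks old in the sample records and as 8 to 10 weeks old in their protocol, were dissociated into single cells and sequenced as droplet libraries. There was 1 library from control mice (Ctrl) and 1 from mice injected intraperitoneally with clodronate liposomes (CL), an agent taken up by phagocytes that is used to deplete macrophages. Live cells without CD31 and TER119, markers of endothelial and red blood cells, were sorted, and how many mice went into a library is not given in the sources used here. The study asked what macrophages provide to mammary epithelial cells and examined TNF as a signal between them, so the question here is which cells carried the transcripts of this pathway and how each class of cell differed between the libraries.

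TNF is a cytokine made as a membrane protein and shed from the cell, above all by activated macrophages. It binds TNFR1, the product of Tnfrsf1a, which most cell types carry, and TNFR2, the product of Tnfrsf1b, which is mainly found on immune and endothelial cells. Both lead to activation of NF-kB, which is held in the cytoplasm by its inhibitor IkB-alpha (Nfkbia) until that protein is degraded, and which then induces its own inhibitors, Nfkbia and Tnfaip3, so that the response is self-limiting.

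With 1 library per group there is no replicate and no test between the libraries. Levels are given as CPM, the unique molecular identifiers (UMIs) of a gene for every 1000000 UMIs of all genes in the cells of a class, and ratios as log2 of CL over Ctrl. The values in square brackets are exact 95% intervals that cover counting error only, not the difference between mice. A ratio whose interval leaves out 0 is called beyond counting error. After filtering, 5937 Ctrl and 8826 CL cells were kept, with 86092221 and 117525807 UMIs, and 22 barcodes were among the candidate cells of both libraries. Classes were named from marker genes, so "secretory-lineage-like" and the like describe clusters rebuilt here, which may differ from those of the study. The macrophage list of 11 markers was at 97.4 CPM over all cells of the library labelled Ctrl and at 240.9 CPM in the library labelled CL, although CL is used to deplete these cells. Basal-like cells were 6.87% and 5.03% of all kept cells. The clusters named by this list were divided into a C1q-high cluster, called macrophage-like, and C1q-low clusters. The former had 41 Ctrl and 43 CL cells (0.691% and 0.487% of kept cells), the latter 13 and 172 (0.219% and 1.95%). Lyz2 was among the leading genes of every C1q-low cluster and S100a4 of most. Ly6c2 and Chil3, known from monocytes, led with them in a cluster of 1 Ctrl and 45 CL cells. Ly6c2 alone of these 2 did so in another of 3 and 38, so the name C1q-low cells is used only. C1q was read before a mixed immune cluster was subdivided. The C1q-low cells thus include a cluster of 0 Ctrl and 48 CL cells with 1318 CPM of C1q genes. The C1q-low cells held 16720 of the 28317 UMIs of the macrophage list in CL and the C1q-high cells 8031, against 716 and 5099 of the 8385 UMIs in Ctrl. Endothelial-like cells numbered 54 and 60, although CD31 was to be removed. Droplets of 100 to 300 UMIs, 54275 in Ctrl and 55973 in CL, gave the level of free RNA, to which any class is exposed. Levels are called above or below the droplets where the intervals are apart. Against the far fewer droplets of 50 to 100 UMIs, 18 of 63 levels called above and 32 of 39 called below had overlapping intervals, and none changed sides.

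Tnf (ENSMUSG00000024401, chromosome 17, 35199381 to 35202007, minus strand) reached its highest level in Ctrl in the C1q-high macrophage-like cells, at 317.6 CPM [260.0, 384.1] from 106 UMIs. In CL the same cluster had 106.9 CPM [80.3, 139.4] from 54 UMIs, a log2 ratio of -1.57 [-2.07, -1.09]. Tnf was thus lower in the C1q-high cells of the library labelled CL beyond counting error, within 1 cluster whose number of cells hardly differed between the libraries. The share of these cells with a Tnf UMI was 39.0% in Ctrl and 44.2% in CL. It was 37.8% and 28.9% after thinning to 3995 UMIs, with cells under that depth left out, and intervals overlapped widely in both cases. The UMIs were unevenly spread. In Ctrl, 42 of the 106 UMIs lay in 1 cell and 5 of the 41 cells held 5 or more. In CL, 26 of the 54 UMIs lay in 1 cell, the only 1 of 43 with 5 or more, and 11 cells held a single UMI. Without the cell with most Tnf UMIs in each library the levels were 196.7 and 56.9 CPM, and the ratio was -1.79 [-2.49, -1.13]. The 10 genes of the dissociation stress list, immediate early genes such as Fos and Jun, were lower in the same cells, at 7110 CPM in Ctrl and 4658 CPM in CL, and their part in the Tnf difference was not tested. Markers of secretory-lineage cells, a list that holds Cd14, which macrophages express too, were at 5773 and 6022 CPM there, basal markers at 650.1 and 39.6 CPM, and T and NK markers at 359.5 and 261.2 CPM with 8 and 7 of the 10 at 0. Their part was not tested either.

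**Figure D1:**
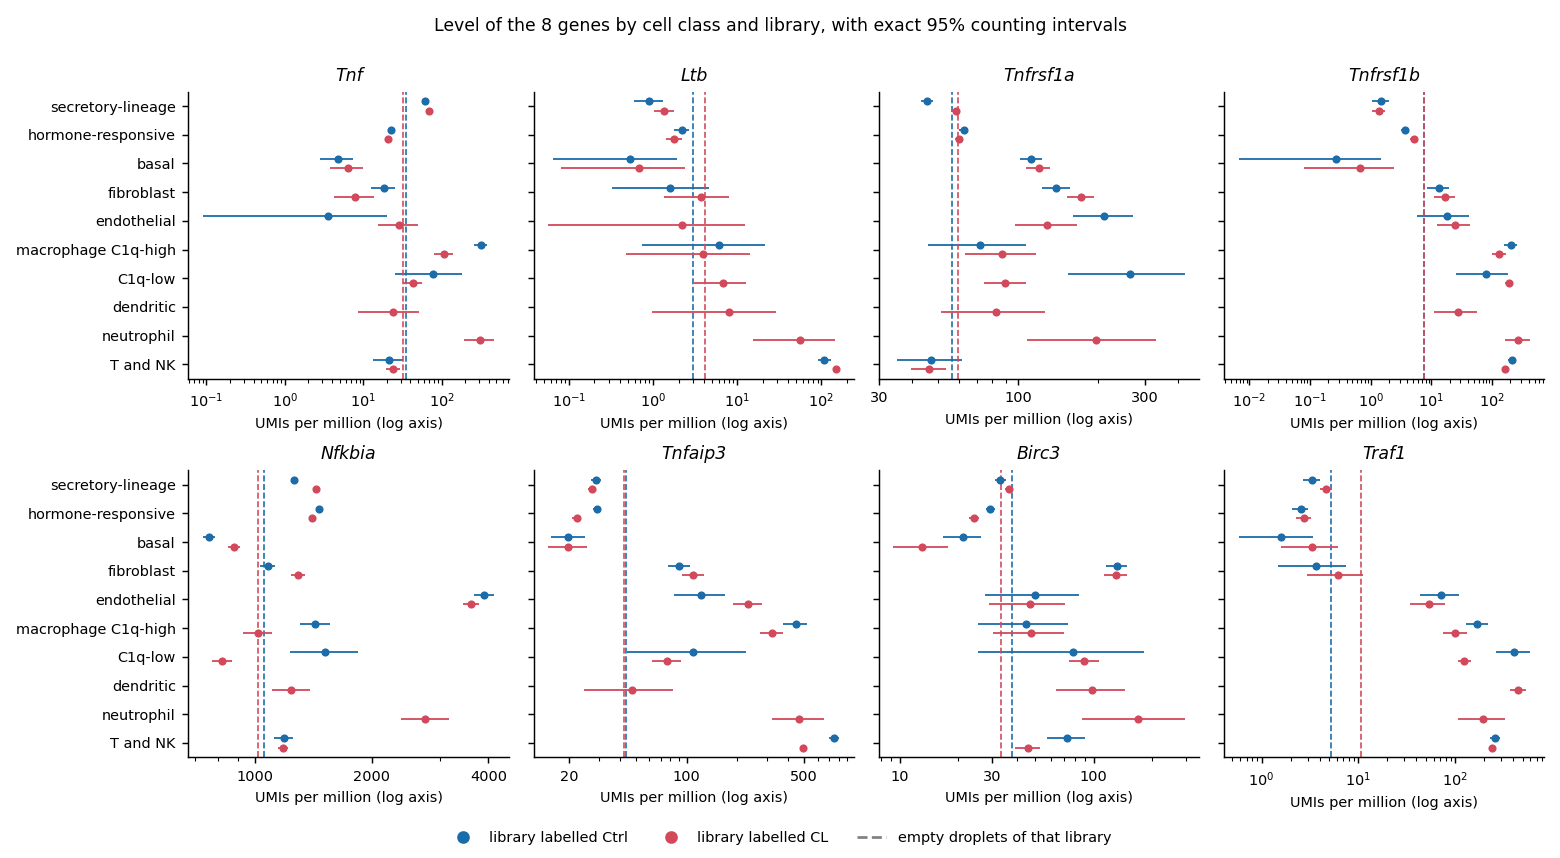
Level of each of the 8 genes in CPM (horizontal log axes) by cell class, for the library labelled Ctrl (blue) and the library labelled CL (red); points are sums over the cells of a class with at least 10 cells and 1 UMI, B-like cells not drawn, bars are exact 95% counting intervals, and dashed lines mark empty droplets. Tnf stands above the droplets in secretory-lineage-like, C1q-high macrophage-like and neutrophil-like cells, and Ltb in T and NK-like cells.

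The C1q-low cells had 5 Tnf UMIs in Ctrl (78.0 CPM) and 58 in CL (43.0 CPM [32.6, 55.6]), and their ratio was within counting error. In CL this level was lower than that of the C1q-high cells, with intervals that did not overlap, and its interval overlapped that of the empty droplets at 31.9 CPM. The C1q-high level in CL rested in large part on 1 cell, however. Without the cell with most Tnf UMIs of each class, the CL levels were 56.9 CPM in C1q-high and 39.6 CPM in C1q-low cells. Neutrophil-like cells, 2 in Ctrl and 20 in CL, had 309.9 CPM [194.2, 469.1] of Tnf in CL from 22 UMIs. Their interval lay above that of the C1q-high cells of the same library. Secretory-lineage markers were at 11155 CPM and macrophage markers at 2085 CPM in the neutrophil-like cells of CL, and their part was not tested.

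Tnf transcripts were also found in epithelial cells. Secretory-lineage-like luminal cells, the lineage that gives milk-producing cells, numbered 2624 in Ctrl and 3911 in CL and had 61.1 CPM [58.3, 63.9] and 68.2 CPM [65.7, 70.7] of Tnf, above the 35.5 and 31.9 CPM of empty droplets, though with intervals that overlapped those of the droplets of 50 to 100 UMIs (41.8 and 49.9 CPM, from 7 and 9 UMIs). The log2 ratio was 0.16 [0.07, 0.24], and 0.16 without a cluster of 12 Ctrl and 774 CL cells. These cells carried 57.9% of all Tnf UMIs of the library labelled Ctrl and 59.9% of the library labelled CL, while the C1q-high macrophage-like cells carried 3.34% and 1.09%. When each cell was named alone from its marker UMIs instead of by its cluster, the secretory-lineage-like share was 39.6% and 34.0%. A Tnf UMI was found in 33.1% and 35.2% of them, and in 20.3% and 23.3% of those with at least 5236 UMIs after thinning to that depth. Of the Ctrl cells 80 held 5 or more Tnf UMIs, and of the CL cells 130. Basal-like cells, the myoepithelial layer that holds the stem cells of the gland, had 4.74 and 6.35 CPM, from 18 and 19 UMIs, 8 of the latter in 1 cell, and so less than the droplets.

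Within the secretory lineage Tnf varied among clusters from 33.4 CPM, in a cluster of 901 cells, to 76.6 CPM. Between the libraries clusters went in opposite directions, though all but those named next were within counting error (0.17, 0.06, -0.09 and -0.32). In the cluster of 478 Ctrl and 970 CL cells it was at 59.9 and 83.5 CPM (0.48 [0.31, 0.65]), while in the cluster that held only 12 Ctrl cells it was at 145.6 and 70.4 CPM (-1.05 [-1.59, -0.45]). The other classes had low levels. Hormone-responsive-like luminal cells, which carry the oestrogen and progesterone receptors, had 22.4 and 20.7 CPM, T and NK-like cells 21.2 and 24.0 CPM and fibroblast-like cells 18.3 and 7.96 CPM. All 3 lay below the droplets in both libraries, the T and NK-like cells of CL with overlapping intervals, so these class levels are not read as expression. Hormone-responsive-like cells still carried 31.1% of all Tnf UMIs in Ctrl and 19.7% in CL. Of their cells 19 in each library held 5 or more Tnf UMIs. Where these UMIs came from was not tested. In endothelial-like cells 9 of 13 CL UMIs lay in 1 cell.

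Ltb (ENSMUSG00000024399, chromosome 17, 35194439 to 35196320, plus strand), which lies next to Tnf and encodes lymphotoxin beta, a ligand of lymphocytes that anchors lymphotoxin at the membrane, marked lymphoid cells. T and NK-like cells had 108.9 CPM [90.1, 130.4] in Ctrl, from 118 UMIs in 213 cells, and 151.3 CPM [139.2, 164.1] in CL, from 579 UMIs in 734 cells. The ratio of 0.48 [0.19, 0.77] was beyond counting error, and 0.32 [0.00, 0.66], within it, with each cell named alone. The share of cells with a UMI was 32.4% and 35.0%, and 20.9% and 21.9% after thinning to 2320 UMIs, with cells under that depth left out. Cells with a CD3-complex UMI and no UMI of 4 NK markers had 185.2 CPM [144.1, 234.4] in Ctrl and 230.3 CPM [208.7, 253.5] in CL. Cells with an NK marker UMI and no CD3 UMI had 33.2 CPM [16.6, 59.4] and 38.4 CPM [26.1, 54.5]. Ltb was therefore lower in the NK side of the class in both libraries, and within each side the ratio of the libraries was within counting error (0.31 [-0.06, 0.70] and 0.21 [-0.82, 1.35]). The CD3-only cells made up 75 of the 213 Ctrl cells and 367 of the 734 CL cells. B-like cells, 17 in CL, had 13 Ltb UMIs (176.4 CPM) there. Secretory-lineage-like and hormone-responsive-like cells had 0.899 to 2.19 CPM, at or below the 2.99 and 4.14 CPM of droplets. Over all kept cells Ltb went from 2.94 to 6.72 CPM (1.19 [0.99, 1.40]), while T and NK-like cells went from 3.59% to 8.32% of the cells.

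Of the receptors, Tnfrsf1a (ENSMUSG00000030341, chromosome 6, 125349362 to 125362484, plus strand) was found in every class with at least 20 cells, and stood highest in endothelial-like, fibroblast-like and basal-like cells in Ctrl, joined in CL by 20 neutrophil-like cells with 14 UMIs (197.2 CPM). Endothelial-like cells had 210.9 CPM [160.6, 272.1] in Ctrl and 128.9 CPM [97.9, 166.6] in CL (-0.71), within counting error with at least 1000 genes per cell (-0.50 [-1.07, 0.07]). Fibroblast-like cells had 139.0 and 172.7 CPM, a ratio of 0.31 that was within counting error under 3 alternatives (0.16 [-0.07, 0.39] with doublets kept). Their own markers were at 41926 and 28050 CPM and hormone-responsive markers at 828.4 and 1390 CPM, and the part of this was not tested. Basal-like cells had 111.9 CPM [101.5, 123.0] and 119.6 CPM [107.5, 132.6] of Tnfrsf1a, a ratio of 0.10 [-0.11, 0.30]. These 3 classes stood above the 56.4 and 59.4 CPM of droplets in both libraries. In Ctrl the intervals of endothelial-like and fibroblast-like cells did not overlap, those of fibroblast-like and basal-like cells did. The luminal classes were near the droplets, with 62.5 and 60.1 CPM in hormone-responsive-like cells and 45.7 and 58.5 CPM in secretory-lineage-like cells. The secretory-lineage-like ratio of 0.36 [0.26, 0.45] was beyond counting error, and so it was on its own in 4 of the 6 clusters of that class (0.21 to 0.58), with the other two within it. In Ctrl the level of this class lay below the droplets, and in CL it overlapped them.

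Tnfrsf1b (ENSMUSG00000028599, chromosome 4, 145213463 to 145246870, minus strand) was highest in immune classes. Endothelial-like cells had 17.9 CPM in Ctrl and 24.4 CPM in CL, and fibroblast-like cells 13.1 and 16.5 CPM. Both classes stood above the droplets in CL only. T and NK-like cells had 210.3 CPM [183.9, 239.5] in Ctrl and 161.5 CPM [149.0, 174.7] in CL, a ratio of -0.38. The C1q-high macrophage-like cells had 200.7 CPM [155.6, 254.9] and 130.6 CPM [101.0, 166.2], a ratio of -0.62 [-1.13, -0.11]. This call was lost under 5 alternatives, for instance at -0.12 [-0.55, 0.33] with C1q read on each sub-cluster and at -0.54 [-1.09, 0.01] without the cell richest in Tnfrsf1b of each library. In the C1q-low cells it was 5 UMIs in Ctrl (78.0 CPM) and 254 in CL (188.3 CPM [165.8, 212.9]), a ratio of 1.27 [0.03, 2.91]. This ratio was within counting error under 7 alternatives, down to 0.35 [-0.45, 1.28] with at most 5% mitochondrial UMIs. With each cell named alone it was 2.92. Basal-like cells had 1 UMI in Ctrl and 2 in CL among 408 and 444 cells, secretory-lineage-like cells 1.46 and 1.36 CPM and hormone-responsive-like cells 3.69 and 5.08 CPM, all below the 7.44 and 7.57 CPM of droplets. Among the epithelial classes Tnfrsf1a was above free RNA in basal-like cells alone, and Tnfrsf1b in none of the 3. Over all kept cells Tnfrsf1b went from 6.52 to 11.6 CPM (0.83 [0.69, 0.97]), while it was lower in T and NK-like and C1q-high cells. In CL its highest level was that of the 20 neutrophil-like cells (267.6 CPM from 19 UMIs).

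**Figure D2:**
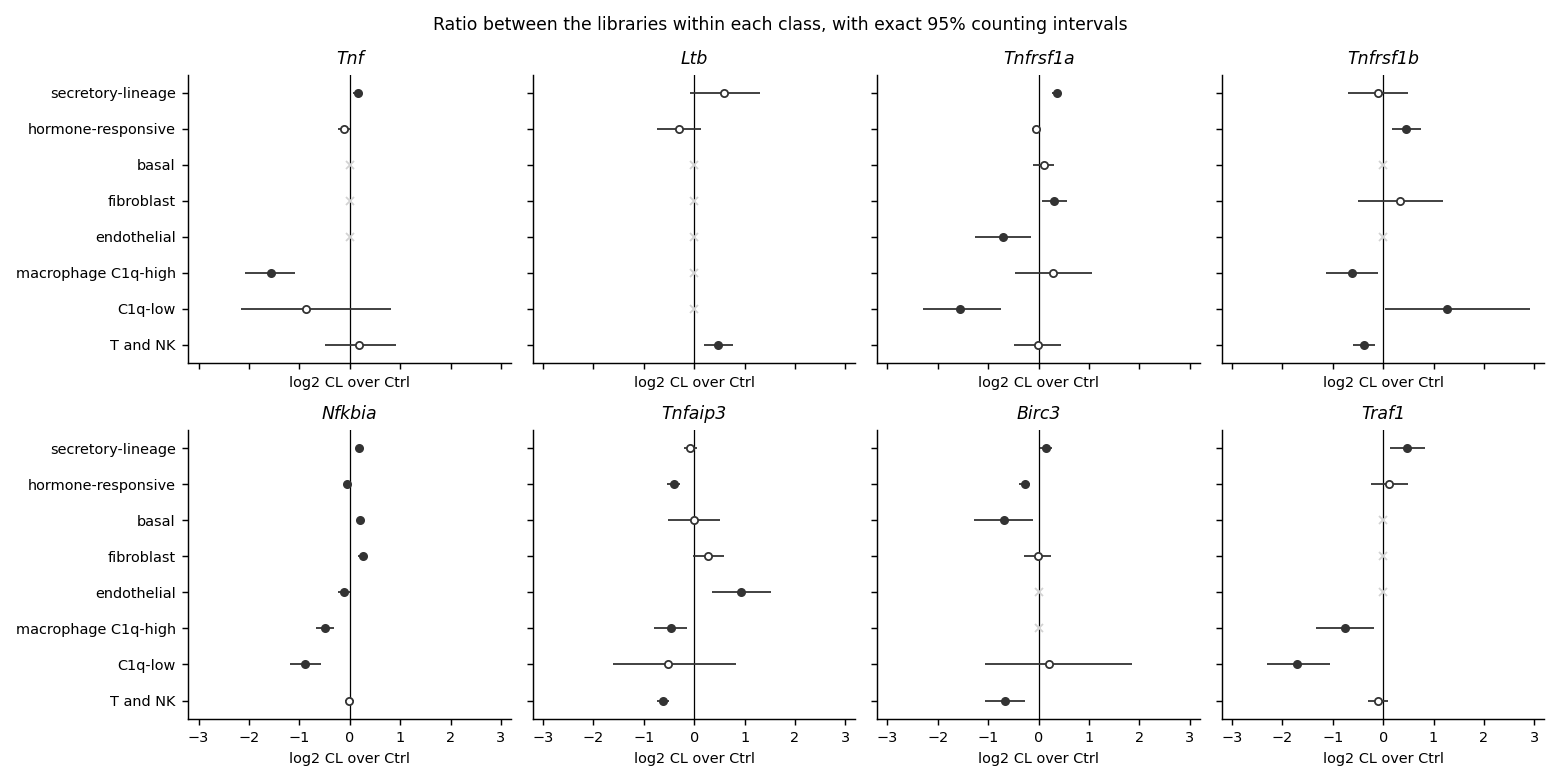
Log2 ratio of CL over Ctrl (horizontal axes) of each gene within 8 cell classes, with exact 95% counting intervals; filled points are beyond counting error, open points within it, and grey crosses at 0 mark a gene with under 50 UMIs in the class. Filled points of 5 genes lie left of 0 in C1q-high macrophage-like cells, and filled points of 5 genes lie right of 0 in secretory-lineage-like cells.

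The promoters of the 8 genes were searched for the kappa-B consensus, the sequence that NF-kB binds, on both strands of the 250 bases before each start site (RefSeq, build GRCm38.p6, in which all 8 genes were matched). It was found in Nfkbia, in Ltb and at the more upstream of the annotated starts of Tnfaip3, which held 2 matches, and not in this window of Tnf, Tnfrsf1a, Tnfrsf1b, Birc3 or Traf1. Of 32851 promoters of the same length 3.90% held it, while a looser motif (G, G, G, 5 bases of any kind, C, C), of which every kappa-B match is a case, was in 45.8%. A match is a description of letters, not of binding. The promoter of Nfkbia is printed 5′ to 3′ because it carries a match, in capitals, upstream of the most abundant of these transcripts, and that of Tnf beside it as the ligand without one. They are chr12:55492648-55492897 and chr17:35202008-35202257, both on the minus strand. The Nfkbia match is on the opposite strand, 29 to 20 bases before the start. The Ltb match lies 87 to 78 bases before the start, and the 2 matches of Tnfaip3 at 125 to 116 and 12 to 3 bases. They are given alone and as read on their own strand, since these windows overlap the gene of the GENCODE annotation. The Ltb window does so in part, outside the match, and the Tnfaip3 window for nearly all its length, with both matches. The Tnfrsf1a window lies wholly within its annotated gene and the Birc3 window partly.
Nfkbia: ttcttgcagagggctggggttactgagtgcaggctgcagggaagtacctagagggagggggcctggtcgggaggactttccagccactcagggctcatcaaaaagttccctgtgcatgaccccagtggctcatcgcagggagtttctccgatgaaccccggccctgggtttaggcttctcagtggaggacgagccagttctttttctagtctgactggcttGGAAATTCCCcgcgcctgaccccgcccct
Tnf: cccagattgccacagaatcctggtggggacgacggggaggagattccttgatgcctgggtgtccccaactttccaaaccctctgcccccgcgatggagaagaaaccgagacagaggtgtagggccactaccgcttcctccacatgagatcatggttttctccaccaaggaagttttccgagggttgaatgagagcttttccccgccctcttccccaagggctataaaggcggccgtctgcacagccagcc
Tnfaip3: GGGACACCCC
Tnfaip3: GGGGATTTCC
Ltb: GGGACTTTCC

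Nfkbia (ENSMUSG00000021025, chromosome 12, 55489410 to 55492647, minus strand) was measured in every class and most highly in endothelial-like cells, at 3904 CPM [3675, 4142] in Ctrl and 3606 CPM [3433, 3786] in CL. The other classes with at least 20 cells in Ctrl had 759.9 CPM, in basal-like cells, to 1461 CPM, in hormone-responsive-like cells, on either side of the 1050 CPM of droplets, which were at 1014 CPM in CL. In CL 20 neutrophil-like cells had 2747 CPM. The endothelial-like ratio of -0.11 [-0.23, 0.00] was at the edge of counting error. Secretory-lineage-like cells had 1257 CPM in Ctrl and 1432 CPM in CL (0.19), basal-like cells 759.9 and 880.7 CPM (0.21) and fibroblast-like cells 1075 and 1290 CPM (0.26). In hormone-responsive-like cells the ratio was -0.06, and it turned to 0.14 [0.12, 0.16] without a cluster of 850 Ctrl and 44 CL cells, where Nfkbia was at 1781 CPM. The C1q-high macrophage-like cells went the other way, from 1426 CPM [1301, 1560] to 1015 CPM [929.2, 1106.9] (-0.49 [-0.67, -0.31]), as did the 13 and 172 C1q-low cells (1514 and 818.3 CPM, -0.89). The T and NK-like level was 1184 and 1178 CPM.

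Tnfaip3 (ENSMUSG00000019850, chromosome 10, 19000910 to 19015657, minus strand) encodes A20, a ubiquitin-editing enzyme that shuts off NF-kB signalling. Its level was highest in T and NK-like cells in Ctrl, and in CL these overlapped 20 neutrophil-like cells (464.8 CPM [319.9, 652.8]). T and NK-like cells had 755.5 CPM [704.6, 809.1] in Ctrl and 491.8 CPM [469.8, 514.5] in CL, a ratio of -0.62 [-0.74, -0.50]. The lower level in CL was found both in cells with CD3 and no NK UMI (703.2 and 471.1 CPM, -0.58 [-0.78, -0.37]) and in cells with NK and no CD3 UMI (724.6 and 443.2 CPM, -0.71 [-0.95, -0.47]). By cluster it was lower in CL beyond counting error in 2 of the 3 clusters of the class (-0.69 [-0.89, -0.49] and -0.49 [-0.73, -0.24]). The cluster with the highest level had 983.3 CPM in Ctrl and 1072 CPM in CL, within counting error (0.12 [-0.08, 0.33]), and made up 60 of the 213 Ctrl cells but 73 of the 734 CL cells, so that the makeup of the class differed between the libraries as well. The stress list was also lower in T and NK-like CL cells, at 6029 and 4440 CPM, and its part was not tested. The C1q-high macrophage-like cells had 443.4 and 320.6 CPM (-0.47), and -1.35 [-1.63, -1.07] at Leiden resolution 0.5, from 160 and 311 UMIs. Endothelial-like cells went the other way, from 34 UMIs (121.5 CPM [84.2, 169.8]) to 104 UMIs (231.1 CPM [188.8, 280.0]), a ratio of 0.93 [0.36, 1.53] that was 0.56 [-0.05, 1.21] with at most 5% mitochondrial UMIs. In these cells hormone-responsive markers were at 854.3 and 2528 CPM, secretory-lineage markers at 2527 and 3308 CPM and endothelial markers at 4997 and 4601 CPM, and their part in the endothelial values was not tested. Fibroblast-like cells had 90.4 and 109.6 CPM, within counting error. The epithelial classes had 19.7 to 29.4 CPM, below the 43.3 and 42.3 CPM of droplets.

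Birc3 (ENSMUSG00000032000, chromosome 9, 7848699 to 7873186, minus strand) encodes a ubiquitin ligase of the TNF receptor complex that keeps cells from dying. Among classes with at least 20 cells it was highest in fibroblast-like cells in Ctrl, at 131.7 CPM [115.9, 149.0], with 129.8 CPM [113.0, 148.6] in CL. In CL 20 neutrophil-like cells had 169.0 CPM [87.3, 295.2] from 12 UMIs. In T and NK-like cells Birc3 lay lower in CL, with 45.7 CPM against 72.9 CPM (-0.67). In basal-like cells it was 21.1 CPM from 80 UMIs and 13.0 CPM from 39 UMIs (-0.69), both below the 38.1 and 33.3 CPM of droplets. In hormone-responsive-like cells the ratio of -0.28 became -0.07 [-0.21, 0.07], within counting error, without the cluster that lay mostly in Ctrl.

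Traf1 (ENSMUSG00000026875, chromosome 2, 34941750 to 34961772, minus strand), an adaptor that works with TNFR2 and Birc3, was an immune and endothelial transcript. T and NK-like cells had 262.0 CPM [232.4, 294.3] in Ctrl and 242.5 CPM [227.1, 258.6] in CL, within counting error of each other. The highest level in CL was in 21 dendritic-like cells, 453.4 CPM [374.3, 544.2]. The C1q-high macrophage-like cells had 170.8 and 100.9 CPM (-0.76 [-1.33, -0.19]). The C1q-low cells had 405.7 CPM from 26 UMIs and 124.5 CPM from 168 UMIs (-1.70), a ratio that turned to 0.19 with each cell named alone. Dendritic markers were at 296.5 CPM in Ctrl and 43.0 CPM in CL in the C1q-low cells, and their part was not tested. Endothelial-like cells had 71.5 and 53.3 CPM, while epithelial and fibroblast-like cells had 1.58 to 6.12 CPM, against 5.26 and 10.8 CPM in droplets.

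Read by class, members with at least 50 UMIs were counted beside all genes with as many. In secretory-lineage-like cells 5 of 8 were higher in CL beyond counting error (Tnf, Tnfrsf1a, Nfkbia, Birc3 and Traf1) and none lower, where 15.3% of all genes were higher and 20.2% lower. Of these 5, Birc3, Tnfrsf1a and Traf1 did not stand above the droplets in both libraries. Birc3 was within counting error (0.12) without the cluster that lay mostly in CL, as was Traf1 (0.24) with each cell named alone. The stress list in secretory-lineage-like cells was at 11449.5 CPM in Ctrl and 9699.2 CPM in CL, and its part was not tested. In C1q-high macrophage-like cells 0 of 6 were higher and 5 lower (Tnf, Tnfrsf1b, Tnfaip3, Nfkbia and Traf1), where 14.2% of all genes were higher and 13.6% lower. Of these the Tnfrsf1b call was lost under 5 alternatives, and the stress list stood lower in the same cells, as given above. In T and NK-like cells 1 of 8 was higher (Ltb) and 3 were lower (Tnfrsf1b, Tnfaip3 and Birc3), against 9.07% and 9.56% of all genes. In hormone-responsive-like cells 1 of 8 was higher (Tnfrsf1b) and 3 were lower (Tnfaip3, Nfkbia and Birc3), against 16.9% and 26.3%. Without the cluster of 850 Ctrl and 44 CL cells, 2 of these 3 calls were lost. Nfkbia was then higher (0.14), Birc3 within counting error and Tnfrsf1a lower (-0.14 [-0.23, -0.05]). T and NK markers in hormone-responsive-like cells were at 8.99 CPM in Ctrl and 20.2 CPM in CL. Their part in the Tnfrsf1b ratio was not tested. Among basal-like cells 1 of 4 was higher (Nfkbia) and 1 lower (Birc3, within counting error at -0.41 with doublets kept), against 6.78% and 13.0%. In basal-like cells secretory-lineage markers were at 2539.5 CPM in Ctrl and 3335.2 CPM in CL, and hormone-responsive markers at 333.5 and 464.2 CPM. Fibroblast markers were at 299.3 and 178.0 CPM and the stress list at 12781 and 14042 CPM, and the part of these lists was not tested. Fibroblast-like cells had 2 of 5 higher (Tnfrsf1a and Nfkbia) and none lower, against 9.95% and 12.8%. Of 3 in endothelial-like cells, 1 was higher (Tnfaip3) and 2 lower (Tnfrsf1a and Nfkbia), against 13.5% and 14.0%, and in C1q-low cells 1 of 7 was higher (Tnfrsf1b) and 3 were lower (Tnfrsf1a, Nfkbia and Traf1), against 6.72% and 8.40%. With each C1q-low cell named alone, Tnfrsf1a and Traf1 turned to 0.76 and 0.19, and the Tnfrsf1b call was lost under 7 alternatives. In the C1q-low cells the stress list was at 3292 CPM in Ctrl and 2530 CPM in CL. Dendritic markers were at 296.5 and 43.0 CPM, neutrophil markers at 46.8 and 415.8 CPM and erythroid markers at 0 and 542.5 CPM. Secretory-lineage markers were at 2980 and 1722 CPM, and the part of these lists was not tested. The Tnfrsf1a call in fibroblast-like cells and all 3 endothelial-like calls were lost under at least 1 alternative. These intervals narrow with the number of UMIs, so a gene as abundant as Nfkbia is called at a smaller ratio than the others.

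Sizes were mostly small. Of members with at least 50 UMIs, none was past 2-fold between the libraries in either direction in secretory-lineage-like (0 of 8, against 2.13% of all genes), hormone-responsive-like (0 of 8, against 2.48%), T and NK-like (0 of 8, against 3.07%), fibroblast-like (0 of 5, against 3.51%), basal-like (0 of 4, against 2.10%) and endothelial-like cells (0 of 3, against 6.21%). In C1q-high macrophage-like cells 1 of 6 was past 2-fold, Tnf, against 6.84% of genes. In C1q-low cells 3 of 7 were, Tnfrsf1a, Tnfrsf1b and Traf1, against 26.9% of genes, with 13 Ctrl cells in all. The median log2 ratio of the members was 0.17 in secretory-lineage-like cells, against -0.03 over all genes, 0.28 in fibroblast-like cells, against -0.03, and 0.05 in basal-like cells, against -0.08. It was -0.09 in hormone-responsive-like cells, against -0.03, -0.07 in T and NK-like cells, against 0.01, and -0.11 in endothelial-like cells, against 0.00. It was -0.56 in C1q-high cells, against 0.04, and -0.86 in C1q-low cells, against 0.12.

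A wider list of 54 genes of the pathway was counted in the same way, beside the same shares of all genes. In secretory-lineage-like cells 49 had at least 50 UMIs, of which 15 were higher in CL and 10 lower, against 15.3% and 20.2% of all genes. The highest ratios belonged to Tnfsf10, which encodes the death ligand TRAIL (14.5 to 40.8 CPM, 1.49), Csf3, the granulocyte growth factor gene (325.6 to 798.1 CPM, 1.29), and Ccl5 (24.7 to 51.0 CPM, 1.05). The droplets differed in the same direction, from 6.44 to 18.9 CPM for Tnfsf10 and from 136.3 to 317.2 CPM for Csf3, and their part in these ratios was not tested. Ccl5, a T cell chemokine gene, was at 243.4 and 682.6 CPM in droplets and is not read as expression there. The lowest belonged to Ccl7 (-1.26), Mmp3 (-1.10) and Il6 (1.20 to 0.598 CPM), all under 2 CPM and below the droplets. In hormone-responsive-like cells 15 of 50 were higher and 12 lower, against 16.9% and 26.3%, with Ccl5 (1.73), Tnfsf13b (1.00) and Cd40 (0.78) highest and Icam1 (35.7 to 22.1 CPM, -0.69), Il6 (-0.62, within counting error) and Ccl2 (4.28 to 2.90 CPM, -0.56) lowest, the last level with Tnfrsf10b at this rounding. None of these 6 stood above the droplets beyond counting error in either library. In basal-like cells 9 of 43 were higher and 3 lower, against 6.78% and 13.0%. The highest were Cxcl10, an interferon-induced chemokine gene (10.8 to 212.8 CPM, 4.30 [3.84, 4.79]), Cxcl2 (65.3 to 302.3 CPM, 2.21) and Tnfsf10 (8.95 to 26.4 CPM, 1.56). Of these, Cxcl10 alone stood above the droplets, and only in CL. The lowest were Traf5 (-0.66, within counting error), Tab2 (74.0 to 49.8 CPM, -0.57) and Ccl5 (-0.54). Several marker lists and the stress list also differed in basal-like cells, as given above, and their part was not tested.

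Among fibroblast-like cells 14 of 39 genes of the wider list were higher in CL and 3 lower, against 9.95% and 12.8%. The highest were Ccl5 (4.01), Csf3 (2.09), both below the droplets, and Cxcl10 (152.6 to 345.4 CPM, 1.18), and the lowest Tab2 (-0.48), Vcam1, an adhesion molecule (317.8 to 252.3 CPM, -0.33), and Ier3 (814.8 to 675.6 CPM, -0.27, below the droplets), the last level with Map3k7 at this rounding. In endothelial-like cells 8 of 25 were higher and 4 lower, against 13.5% and 14.0%. Cxcl10 (67.9 to 457.7 CPM, 2.75), Cxcl1 (475.4 to 957.6 CPM, 1.01) and Icam1, the leukocyte adhesion molecule (983.0 to 1909 CPM, 0.96), were highest, and Ccl2 (168.0 to 15.6 CPM, -3.43), Ccl7 (-1.30) and Bcl3 (-0.93) lowest. The C1q-high macrophage-like cells had 2 of 29 higher and 8 lower, against 14.2% and 13.6%. The lowest were 3 secreted mediators, Ccl7 (362.5 to 17.8 CPM, -4.35 [-5.51, -3.37]), Ccl2 (431.4 to 31.7 CPM, -3.77 [-4.61, -3.02]) and Il1b (2313 to 987.5 CPM, -1.23 [-1.39, -1.06]). Ccl5 (0.74), Ier3 (0.57) and Rela (0.27, within counting error) were highest, and none of these was above the droplets of CL. In C1q-low cells 2 of 30 were higher and 3 lower, against 6.72% and 8.40%. Tnfrsf12a and Traf3 had 0 UMIs in Ctrl against 73 and 60 in CL, both within counting error for so few Ctrl cells, and Il1b had 3 and 399 UMIs (2.66), while Otulin (-1.15), Nfkb1 (-0.86) and Icam1 (-0.76, within counting error) were lowest. In T and NK-like cells 3 of 39 were higher and 8 lower, against 9.07% and 9.56%, with Csf3 (2.02), Rnf31 (0.77, within counting error) and Cxcl2 (0.53) highest and Tnfsf11, which encodes RANKL (24.9 to 7.06 CPM, -1.82), Cxcl10 (-0.67) and Fasl (153.1 to 109.0 CPM, -0.49) lowest. Csf3 and Cxcl2 were below the droplets there.

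Luminal cells with and without a Tnf UMI were then compared within each library, after thinning the cells of a class to 1 depth and leaving out those under it. This describes cells of 1 library, which are not replicates. Which cells kept a Tnf UMI differed from draw to draw, and some ratios with it, so 20 draws were made, a choice taken after seeing the data, and the median log2 ratio of cells with over cells without Tnf is given with the lowest and highest draw. In 1 draw at 5236 UMIs, Tnf was held by 486 of 2390 Ctrl and 814 of 3521 CL cells of the secretory lineage.

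Nfkbia was higher in the cells with Tnf by 0.68 (0.60 to 0.74) in Ctrl and 0.65 (0.57 to 0.69) in CL. In the draw named above it stood at 1719 CPM in Ctrl cells with Tnf and 1083 CPM in those without. Tnfaip3 was higher by 0.83 (0.56 to 1.10) and 0.79 (0.47 to 0.98), and Birc3 by 0.57 (0.36 to 0.90) and 0.49 (0.25 to 0.68). All 3 are feedback or survival targets of NF-kB, and their ratios were beyond counting error in 20 of 20 draws in both libraries, except Birc3 in CL with 19. Tnfrsf1a was at 0.03 (-0.30 to 0.23) and 0.03 (-0.13 to 0.12), beyond counting error in 0 draws. Tnfrsf1b, Traf1 and Ltb, with few UMIs in these cells, were beyond it in at most 3.

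Of the 14 listed target genes, 4 were higher beyond counting error in every draw in both libraries. These were the neutrophil chemokine genes Cxcl2 (1.47 in Ctrl and 1.42 in CL) and Cxcl1 (1.10 and 1.07), Csf3 (0.60 and 0.97) and Ier3 (0.56 and 0.59). Icam1 (0.95 and 0.68) was higher beyond counting error in 19 draws of each library. Ccl5 and Cxcl10 depended on the draw: in CL Ccl5 ranged from -0.52 to 0.97 and Cxcl10 from 0.25 to 2.07, and in Ctrl the single draw above gave -0.28 and -0.17 where the 20 draws gave 1.57 to 2.65 and 1.21 to 2.62. In these Ctrl cells 1 cell with 13 Tnf UMIs held 334 of the 726 Ccl5 UMIs and 234 of the 641 Cxcl10 UMIs. It kept a Tnf UMI in 20 of 20 draws and lost it in the single draw. In the same draws without this cell, a check added after seeing the data, Ccl5 was at 0.37 (-0.17 to 1.57) and Cxcl10 at 0.98 (-1.24 to 1.84), so both still varied. Sod2 was at 0.18 and 0.15. Ccl2, Ccl7, Vcam1, Mmp3, Il1b and Il6 were higher beyond counting error in 0 of the 20 draws, and Il6 was lower beyond it in 4 draws of Ctrl. In the single draw of Ctrl, Ccl7 (1.39 [0.20, 2.52]) and the T and NK markers (0.72 [0.08, 1.34]) were higher beyond counting error. Over the 20 draws macrophage markers were at 0.02 (-0.22 to 0.25) and -0.03 (-0.34 to 0.22), T and NK markers at 0.14 (-0.36 to 0.59) and -0.16 (-0.73 to 0.41), and the stress list at 0.13 and 0.16, higher in 20 draws of each library, whose part was not tested. Median doublet scores were 0.0593 and 0.0518 in Ctrl cells with and without Tnf.

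In hormone-responsive-like cells, thinned to 7380 UMIs, cells with Tnf also had more Nfkbia (0.53 and 0.43) and Tnfaip3 (1.30 and 1.02) in 20 of 20 draws. Birc3 was at 0.49 (0.18 to 0.82) in Ctrl and 0.50 (0.00 to 0.84) in CL, beyond counting error in 13 and 14 draws. The stress list was higher in 20 of 20 draws of each library (0.13 and 0.16), and its part was not tested. Median doublet scores of cells with and without Tnf were 0.0535 and 0.0425 in Ctrl and 0.0475 and 0.0382 in CL. Whether Tnf UMIs in that class came from the cells or from free RNA was not tested.

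**Figure D3:**
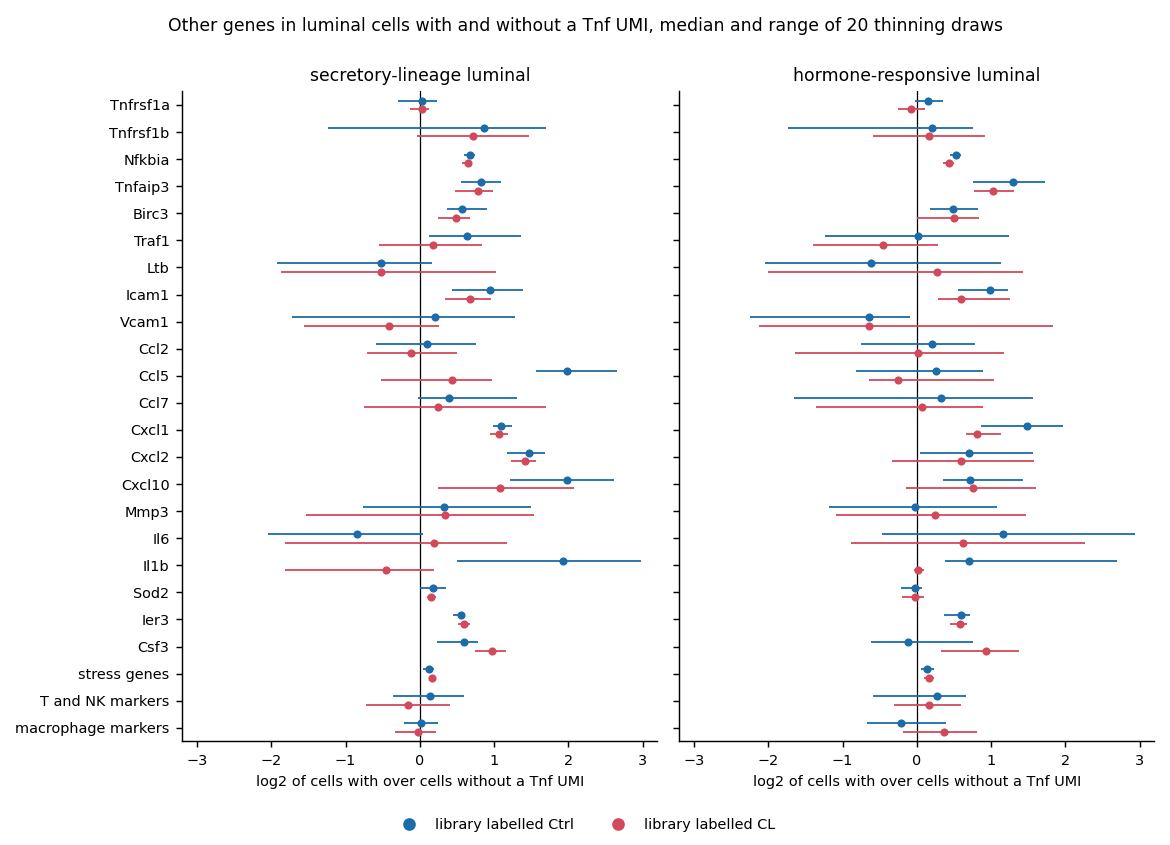
Log2 ratio (horizontal axes) of cells with over cells without a Tnf UMI for the other 7 members, listed target genes and 3 marker lists in secretory-lineage-like (left) and hormone-responsive-like (right) cells thinned to 1 depth; points are medians and bars the range of 20 draws, for each library. In secretory-lineage-like cells Nfkbia, Tnfaip3, Birc3, Icam1, Cxcl1, Cxcl2, Ier3 and Csf3 lie right of 0 in both libraries in every draw.

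The division of UMIs among classes followed the number and depth of cells as well as their levels. T and NK-like cells carried 46.6% of Ltb UMIs in Ctrl and 73.3% in CL, 43.3% and 54.3% of those of Traf1, and 40.6% and 45.4% of those of Tnfrsf1b. The secretory-lineage-like and hormone-responsive-like cells held 32.2% and 54.8% of Nfkbia UMIs in Ctrl and 37.0% and 39.3% in CL. The C1q-low cells held 0.891% of Tnfrsf1b UMIs in Ctrl and 18.7% in CL. Cells left without a name held 5.05% and 14.8% of Tnf UMIs, most of them in a mixed luminal cluster of 136 Ctrl and 525 CL cells with a high median doublet score of 0.1596.

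**Figure D4:**
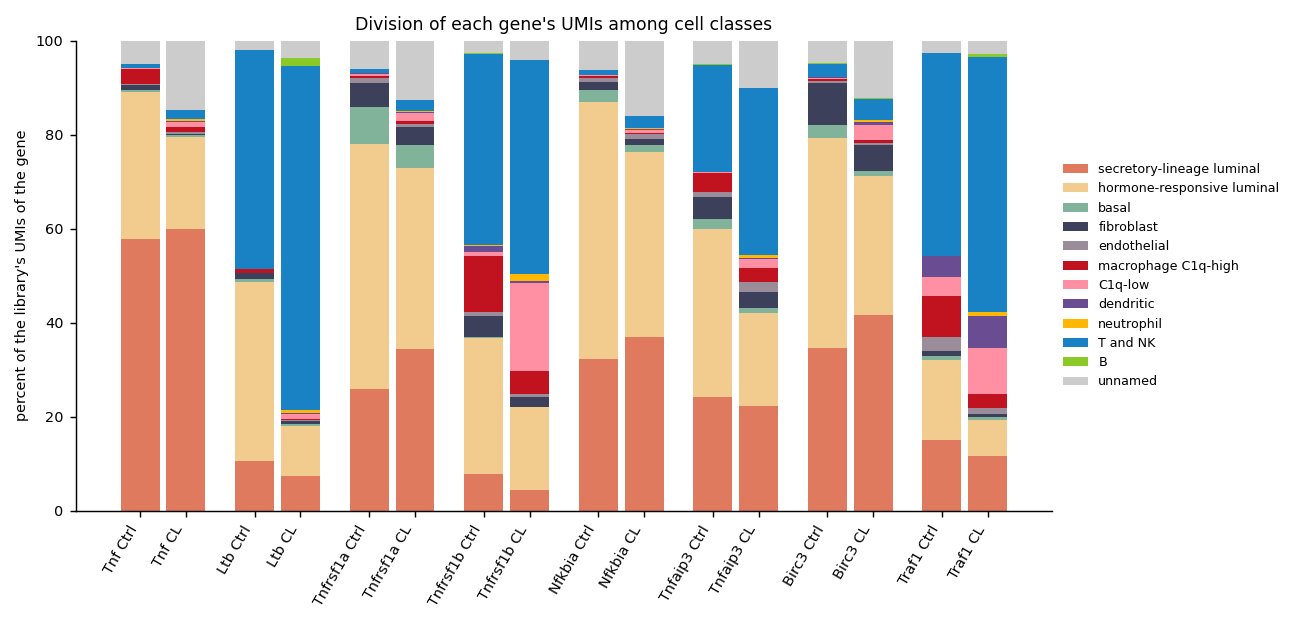
Percent of each library's UMIs of a gene (vertical axis) that lay in each cell class, 1 bar for each gene and library. The secretory-lineage-like share of Tnf was 57.9% in Ctrl and 59.9% in CL, and T and NK-like cells held 46.6% and 73.3% of Ltb.

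The genes whose pattern over 17 class and library pairs with at least 20 cells was most like that of a member were named by Pearson's r of log2(CPM + 10), among 11342 genes. The pairs share libraries and free RNA, and the values are descriptions. Most like Tnf were Acsl1 (0.894), Smox, Atp6v1f, Lrrfip2 and Cd14 (0.859), a lipopolysaccharide co-receptor gene that is itself on the secretory-lineage marker list. Most like Ltb were Il18rap (0.977), Dgat1, Hcst, Stat4 and Cwc25 (0.955). Most like Nfkbia were Rab11a (0.869), Triobp, Snrk, Rnd1 and Gpr146 (0.849).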

How the data were processed

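Droplet 3′ libraries of mouse mammary gland, 1 Ctrl and 1 CL, were deposited as counts: UMIs per gene and barcode, not normalised, made by the authors with Cell Ranger (2.1.1 and mm10 in the submitters' processing notes, version 4 in the matrix header). The barcodes with most UMIs in each library, as many as its deposited barcode list has lines, were kept with at least 500 genes and at most 15% mitochondrial UMIs. Scrublet, with an expected rate of 0.06, marked 360 Ctrl cells at its automatic threshold of 0.21. Its own threshold for CL marked 0, so 0.21 was used for both, and 5.717% and 5.453% of cells were removed. Cells were clustered with scanpy 1.11.5 (2000 variable genes without the members, pathway and stress genes, 30 components, 15 neighbours) and leidenalg 0.10.2 at resolution 1.0. A cluster was named from the marker list with the highest score if at least 3 markers were detected, and a cluster named by the macrophage list was C1q-high at 1000 CPM of C1q genes. A mixed immune cluster was subdivided, a choice made after seeing the data.

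UMIs were summed by class and library. Intervals are exact (Poisson for levels, Clopper-Pearson for shares, conditional binomial for ratios, scipy 1.17.1). Ratios over all genes used those with at least 50 UMIs. Shares were compared after thinning each cell to the lower of the Ctrl and CL 10th percentiles of UMIs in its class. Cells under that depth were left out of the thinned shares. Cells with and without Tnf were compared over 20 draws, chosen after seeing that single draws differed, also without 1 cell rich in Ccl5 and Cxcl10. Named genes are the 8 members, the 3 highest and 3 lowest of the wider list in each class, and the 5 genes most like Tnf, Ltb and Nfkbia. The members and lists were chosen with earlier results of these data known. Gene positions are those of GENCODE M21 on GRCm38. The ratio script was tested on simulated data. Alternatives are given in the closing section.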

Additional observations from a re-analysis of the deposited data

Results flagged for a closer look

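Members whose ratio of CL over Ctrl was beyond counting error in opposite directions in different classes are listed here as log2 values, for members with at least 50 UMIs in a class and the 8 classes compared above. The difference between classes was not tested. Tnf was at 0.16 in secretory-lineage-like cells and -1.57 in C1q-high macrophage-like cells. Tnfrsf1a was at 0.36 in secretory-lineage-like and 0.31 in fibroblast-like cells, against -0.71 in endothelial-like and -1.56 in C1q-low cells, the last of which turned to 0.76 with each cell named alone. The fibroblast-like and endothelial-like values were within counting error with doublets kept (0.16) and at least 1000 genes per cell (-0.50). Tnfrsf1b was at 0.46 in hormone-responsive-like and 1.27 in C1q-low cells, against -0.62 in C1q-high and -0.38 in T and NK-like cells, with the C1q-low and C1q-high values within counting error under 7 and 5 alternatives (down to 0.35 and up to -0.12). Tnfaip3 was at 0.93 in endothelial-like cells (0.56, within counting error, with at most 5% mitochondrial UMIs), against -0.41 in hormone-responsive-like, -0.47 in C1q-high and -0.62 in T and NK-like cells. Nfkbia was at 0.19 in secretory-lineage-like, 0.21 in basal-like and 0.26 in fibroblast-like cells, against -0.06 in hormone-responsive-like (0.14 without the cluster mostly of Ctrl), -0.11 in endothelial-like, -0.49 in C1q-high and -0.89 in C1q-low cells. Birc3 was at 0.15 in secretory-lineage-like cells, against -0.28 in hormone-responsive-like, -0.69 in basal-like and -0.67 in T and NK-like cells. Both luminal Birc3 ratios were within counting error without the cluster mostly of 1 library (0.12 and -0.07). Traf1 was at 0.48 in secretory-lineage-like cells, against -0.76 in C1q-high and -1.70 in C1q-low cells, which turned to 0.19 with each cell named alone.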

How the results depend on the processing

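Of 725 values under alternatives, 653 stayed within the counting interval of the reported value, 67 moved out of it and 5, of ratios beyond counting error, turned direction. Ratios within counting error could change sign and are not counted as turned. Calls beyond counting error held 250 times under alternatives that keep counts, were lost 31 times and were gained 8 times, 5 of them Tnf in hormone-responsive-like cells (0.19 to 0.22 in 3 and -0.14 in 2). Droplets of 50 to 100 UMIs moved 13 of 16 droplet levels, Tnf among them (41.8 and 49.9 CPM in the libraries labelled Ctrl and CL). Nfkbia in hormone-responsive-like cells turned to 0.01 with a minimum of 1000 genes per cell, to 0.00 at Leiden resolution 0.5 and to 0.14 without the cluster mostly of Ctrl. With each cell named alone, Tnfrsf1a and Traf1 in C1q-low cells turned to 0.76 and 0.19. The cause was not tested. The count of members past 2-fold became 1 in endothelial-like cells with at least 1000 genes and when every cell's CPM was averaged instead. In C1q-high cells it became 2 at resolution 0.5 and with C1q read on each sub-cluster, and 0 with at least 200 UMIs. In C1q-low cells it became 1 with each cell named alone and with at least 200 UMIs. The secretory-lineage-like share of Tnf UMIs in Ctrl and CL was 63.4% and 63.9% with at most 5% mitochondrial UMIs, 51.1% and 52.8% with doublets kept, and 39.6% and 34.0% with each cell named alone. Tnfaip3 in T and NK-like cells was -0.80 with doublets kept. Nfkbia in secretory-lineage-like cells was 0.14 with each cell named alone and 0.21 without the cluster mostly of CL. Leaving out clusters or the top cell, reading C1q by sub-cluster and repeating the draws were chosen after seeing the data. With 1 library per group, differences between mice, sorts and runs cannot be told apart from treatment, and 13 Ctrl cells limit every C1q-low value. No paired analysis was possible because each group has 1 library.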

Other observations

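Among cells left unnamed, a cluster of 37 Ctrl and 44 CL cells led by Tagln, Acta2 and Myh11 had 244.5 CPM of Tnfrsf1a over both libraries, from 141 UMIs, with 0 UMIs of Tnfrsf1b and of Traf1 and 2 of Tnf. The cluster of T and NK-like cells led by Gzma, Rgs1 and Gzmb, 60 Ctrl and 73 CL cells, had 1031 CPM of Tnfaip3, against 472.1 and 436.6 CPM in the other two clusters of that class.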
